A study of Drosophila melanogaster with 12 samples.

Results

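Non-LTR retrotransposons outside ribosomal DNA were examined for 2 histone marks in Drosophila melanogaster S2 cells, an established line of embryonic origin. The members are the rows typed as non-LTR retrotransposon in both enrichment tables, without R1_DM, R1-2_DM and R2_DM, the rows of elements tied to ribosomal RNA genes and of an R1 relative. This left 33 of the 203 rows of the H3K9me3 table and of the 199 rows of the H3K36me3 table. Cells received double-stranded RNA for 5 days against GFP, which served as the control, or against KDM4A. This protein is a histone demethylase with a Jumonji domain and binds the heterochromatin protein HP1a. The labels list 12 libraries in 6 groups of 2, namely ChIP for H3K9me3, ChIP for H3K36me3 and input for each RNAi target. All groups share the S2 line and the transfection with DOTAP. Each table gives 1 mean enrichment per row and treatment, read here as a linear ratio. With 1 mean each, no value below has a standard deviation and no difference between treatments could be tested. The depth behind each mean is unknown, and the KDM4A level was not among the values.

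Non-LTR retrotransposons move by transcription of a full copy and reverse transcription of that RNA at a nick in the target DNA. Copies are often truncated at the 5′ end, and in flies many lie in pericentromeric heterochromatin. There H3K9me3, the mark that HP1a binds, covers most transposon copies. H3K36me3 is laid down over transcribed gene bodies and is therefore a mark mainly of active chromatin. A row of the tables gives a single value per mark and treatment, so copies in heterochromatin and copies in genes cannot be separated. Which copies entered a row, and whether they were limited to heterochromatin, is not stated in the sources used here.

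By row name the 33 members fall into 13 name families, of which 6 have more than 1 row and together hold 26 rows. The Jockey clade holds 24 rows: the G elements (8 rows), Doc (6), BS (4), the F element (3 rows named FW), jockey (2) and Helena (1). The R1 clade, related to the element that inserts in ribosomal RNA genes, is present with the 3 RT1 rows (DMRT1A, DMRT1B and DMRT1C). The I clade is present with I_DM, the I factor of I-R hybrid dysgenesis, and with IVK_DM. BAGGINS1 is the LOA-clade row and DMCR1A the CR1-clade row. ALUII_DM and TLD2 were given no clade. Members of a name family share sequence, and how reads that match several of them were assigned is not given in the sources used here.

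H3K9me3 was above 1 at all 33 members in GFP RNAi cells, against 84.7% of all rows of that table. The lowest member was at 1.23, the median at 3.12 and the highest at 4.99. The median over all 203 rows was 2.32, that of 122 LTR retrotransposon rows 2.38 and that of 21 DNA transposon rows 2.09. Of the members, 3 stood among the 10 highest rows of the table. The members were thus placed towards the upper end of this table in the control cells, without being uniform: the highest and the lowest differed 4.04-fold.

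The highest H3K9me3 in GFP RNAi cells was at G7_DM with 4.99, followed by DMRT1A with 4.93 and DMRT1C with 4.42. These rows ranked 4, 5 and 9 of 203. BS3_DM at 3.88, BS2 at 3.86 and BAGGINS1 at 3.81 came next. The RT1 family had the highest family median, 4.42, and its other row, DMRT1B, was at 3.54. At the other end Jockey, the row of the original jockey element, was at 1.23, DOC6_DM at 1.38, ALUII_DM at 1.51 and I_DM at 1.63. Families of the Jockey clade therefore spanned the whole range of the members. The 6 Doc rows alone ran from 1.38 to 3.52, which is 2.55-fold, while the 3 F rows (2.36, 3.12 and 3.67) and the 3 RT1 rows (3.54, 4.42 and 4.93) differed 1.55- and 1.39-fold.

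**Figure D1:**
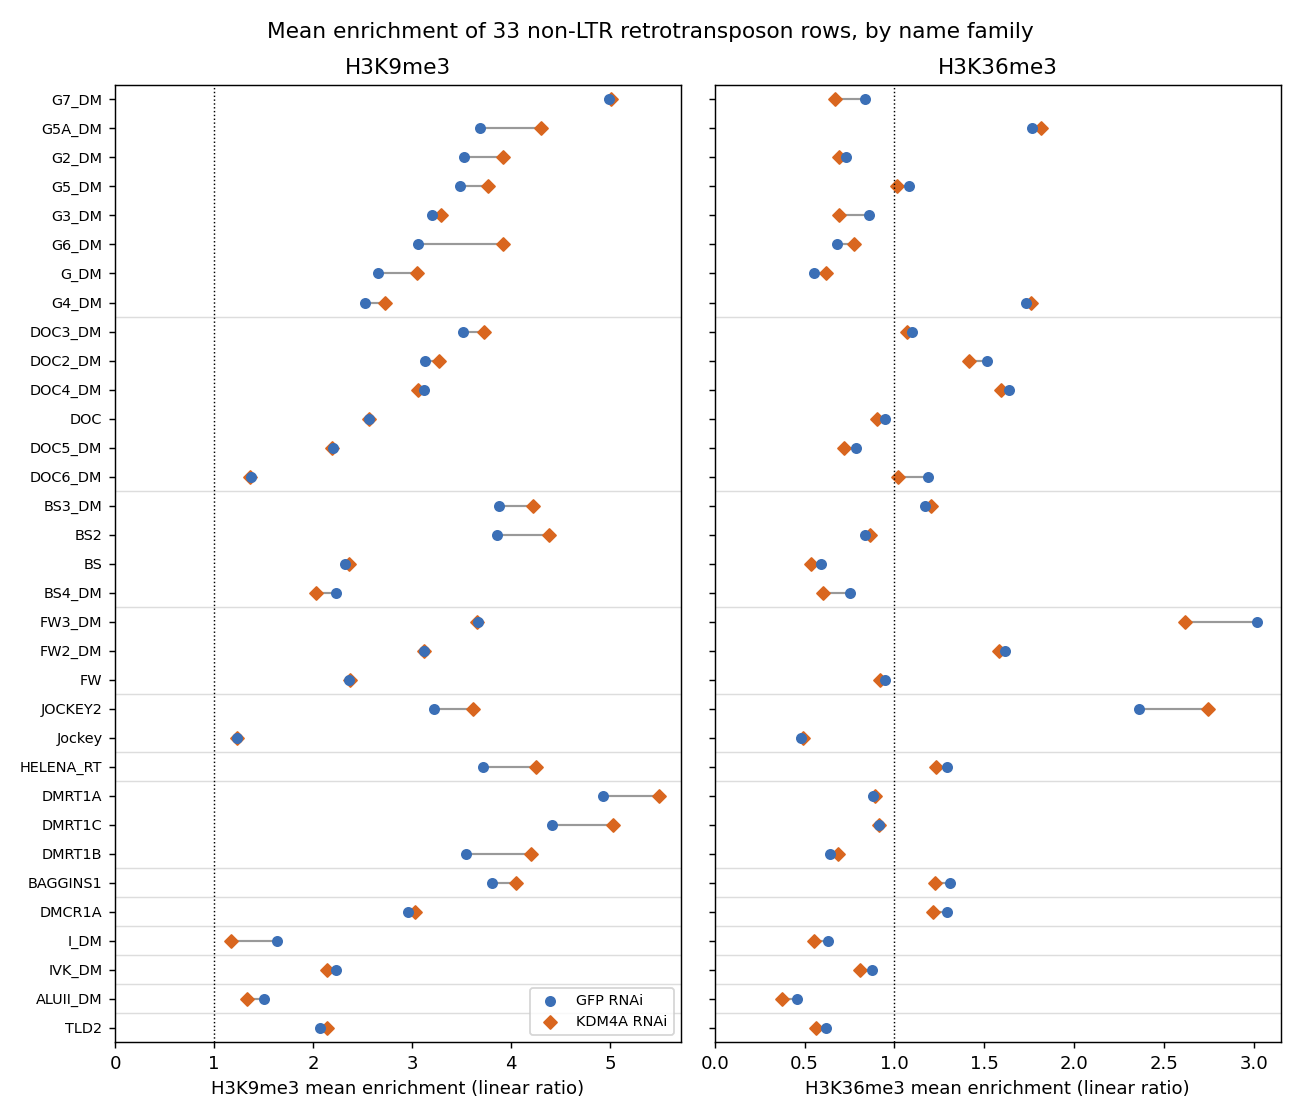
Mean enrichment (horizontal axes, linear ratio) of H3K9me3 (left) and H3K36me3 (right) for each of the 33 rows, grouped by name family with grey lines between families. Circles are GFP RNAi, diamonds KDM4A RNAi, and the dotted line marks a ratio of 1; all members lie above it for H3K9me3, and 14 of 33 do in GFP RNAi cells for H3K36me3.

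H3K36me3 over the members lay close to the level of the whole table. In GFP RNAi cells 14 of 33 were above 1, which is 42.4% against 40.2% of all 199 rows, and the median was 0.912 against 0.898. The median of 118 LTR retrotransposon rows was the same to 3 digits, 0.912, and that of the DNA transposon rows was 1.29. The range was wider than for H3K9me3, from 0.457 at ALUII_DM to 3.02 at FW3_DM, a 6.6-fold difference. FW3_DM ranked 3 of 199 and JOCKEY2, at 2.36, ranked 7. G5A_DM (1.77), G4_DM (1.74), DOC4_DM (1.64), FW2_DM (1.62) and DOC2_DM (1.51) were also high. The lowest members after ALUII_DM were Jockey at 0.479, G_DM at 0.554, BS at 0.590 and TLD2 at 0.621. Neighbours within 1 name family could lie far apart: Jockey and JOCKEY2 differed 4.93-fold, the 3 F rows 3.19-fold and the 8 G rows also 3.19-fold.

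Members high in one mark were not in general low in the other. Across the 33 members Spearman's rho of the levels of both marks in GFP RNAi cells was 0.39 and Pearson's r of the log2 levels 0.42, given as a description without a p-value. The points share the same libraries and, where families are related, sequence, and both marks may have been set against the same inputs, which is not stated. FW3_DM was high in both, with 3.67 for H3K9me3 and 3.02 for H3K36me3. Jockey and ALUII_DM were low in both. G7_DM, DMRT1A and DMRT1C had the highest H3K9me3, while their H3K36me3 of 0.834, 0.880 and 0.912 lay at or below the members' median. DOC6_DM was the opposite case, with H3K9me3 at 1.38 and H3K36me3 at 1.19.

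**Figure D2:**
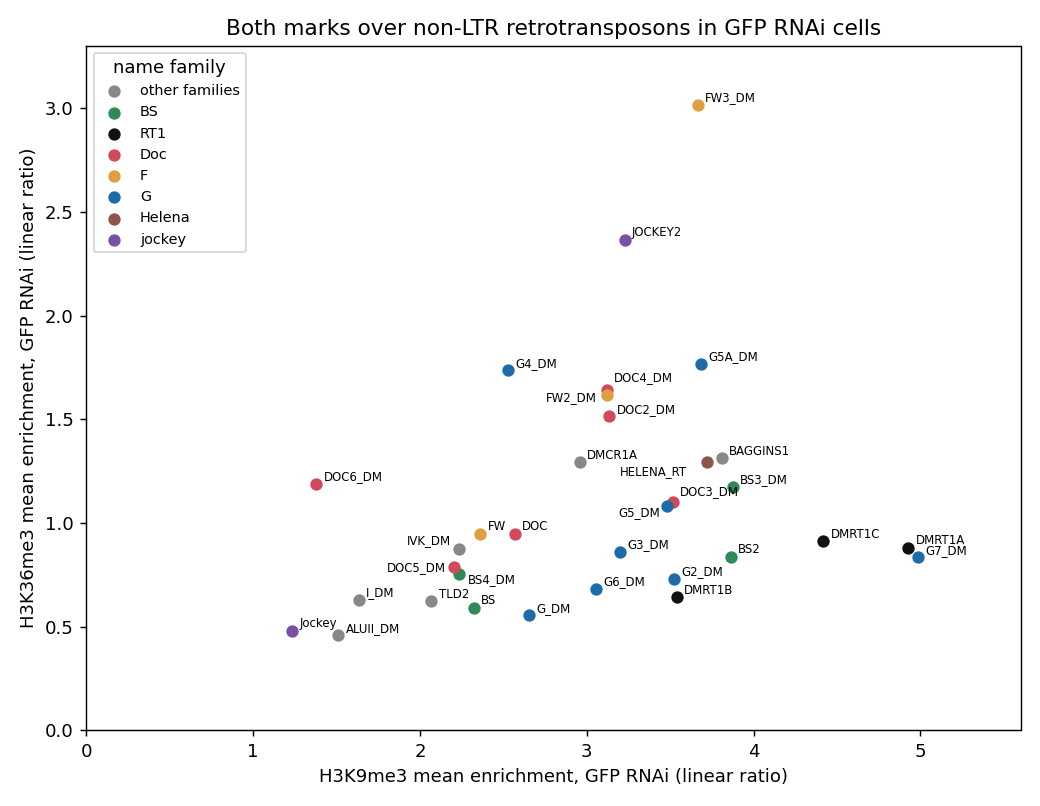
H3K9me3 (horizontal axis) against H3K36me3 (vertical axis) mean enrichment in GFP RNAi cells, both as linear ratios, 1 point per member and coloured by name family. FW3_DM, at 3.67 and 3.02, is the highest member for H3K36me3 and ranks 9 among the members for H3K9me3. DMRT1A, DMRT1C and G7_DM lie at the far right with H3K36me3 below 1.

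Within families, the row that carries the bare family name (BS, DOC, FW, G_DM and Jockey) tended to lie below its numbered relatives. This contrast was chosen after the values had been seen and is a description of 5 families. For H3K36me3 in GFP RNAi cells, 17 of the 18 numbered rows were above the bare-name row of their family, the exception being DOC5_DM at 0.787 against 0.946 for DOC. G_DM at 0.554 was below all 7 numbered G rows, which ran from 0.683 to 1.77. BS at 0.590 was below its 3 relatives (0.755 to 1.17), FW at 0.946 below FW2_DM and FW3_DM, and Jockey at 0.479 below JOCKEY2. For H3K9me3 14 of 18 numbered rows were above. Their median exceeded the bare-name row in all 5 families, by 1.21-fold for Doc up to 2.62-fold for jockey. The 4 exceptions for H3K9me3 were BS4_DM (2.23 against 2.32 for BS), G4_DM (2.53 against 2.66 for G_DM), and DOC5_DM and DOC6_DM (2.20 and 1.38 against 2.57 for DOC). In KDM4A RNAi cells the counts were again 17 and 14 of 18. These counts do not depend on the scaling of a column, since each compares rows within it.

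**Figure D3:**
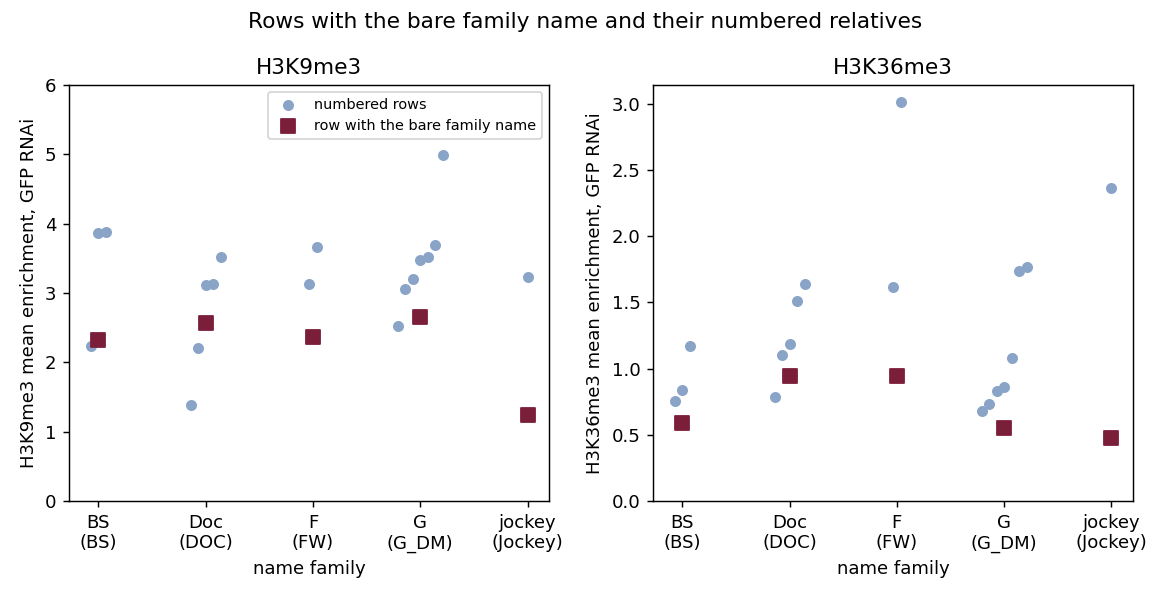
Mean enrichment in GFP RNAi cells (vertical axes, linear ratio, from 0) for the 5 name families with a bare-name row (square) and numbered rows (circles). For H3K36me3 the square is the lowest point in 4 of 5 families, all except Doc, and for H3K9me3 in 2 of 5, F and jockey.

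The second comparison asked how each mark differed over these elements after KDM4A RNAi. For H3K9me3 the difference was small at most members: 20 of 33 differed by less than 1.1-fold, the fold used here in place of a test. KDM4A RNAi values were higher at 23 members (69.7%) and lower at 10, where 64.5% of all 203 rows were higher and 35.5% lower. By 1.1 times or more 10 members were higher and 3 lower, against 21.7% and 16.3% of all rows. By 1.2 times or more 1 member was higher (G6_DM) and 1 lower (I_DM), against 4.93% and 7.39% of all rows. The median log2 ratio of KDM4A RNAi to GFP RNAi was 0.05 over the members and 0.04 over all rows. The majority depended on scaling. With each column divided by the median of all rows 19 members were higher and 14 lower, and with division by the median of LTR and DNA transposon rows 15 were higher and 18 lower. The counts by 1.1 times or more were then 7 higher and 3 lower, and 3 and 3. Of all 203 rows 55.7% were higher under the first scaling and 43.3% under the second. By 1.1 times or more 34 of these rows were higher and 41 lower under the first, and 19 and 47 under the second. What follows therefore concerns differences among the members, which such scaling shifts together.

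The RT1 rows were all higher in H3K9me3 after KDM4A RNAi. DMRT1A was at 4.93 and 5.50 (GFP RNAi first, here and below), DMRT1B at 3.54 and 4.20 and DMRT1C at 4.42 and 5.03. Their log2 ratios of 0.16, 0.25 and 0.19 stayed positive under both scalings, the lowest being 0.09. DMRT1A thereby ranked 2 of 203 rows in KDM4A RNAi cells.

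The 8 G rows were higher as deposited, with a median log2 ratio of 0.13, although G7_DM was below 0 under both scalings and G3_DM under the second. G6_DM showed the largest increase of any member, 3.06 and 3.92, a log2 ratio of 0.36 that ranked 7 of all 203 rows. G5A_DM was at 3.69 and 4.30, G_DM at 2.66 and 3.05 and G2_DM at 3.52 and 3.92. G7_DM, with the highest control level among the members, was nearly level at 4.99 and 5.01. The ratio thus ranged from 0.01 to 0.36 within this family.

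The F and Doc elements, of the same Jockey clade, had the family medians nearest to 0 as deposited among families of more than 1 row, both -0.003. With division by the median of LTR and DNA transposon rows BS (0.008) and jockey (0.015) were nearer, and F and Doc were both at -0.068. FW was at 2.36 and 2.37, FW2_DM at 3.12 in both, and FW3_DM at 3.67 and 3.65. The 3 log2 ratios ran from -0.005 to 0.007, and all 3 were below 0 under either scaling. The 6 Doc rows ran from -0.03 at DOC4_DM (3.12 and 3.06) to 0.08 at DOC3_DM (3.52 and 3.73), with DOC itself at 2.57 in both treatments. Neither family had a row past 1.1-fold, as deposited or scaled. Of the RT1 and G rows 3 of 3 and 4 of 8 were higher by that much as deposited, 2 and 3 with columns divided by the median of all rows, and 1 and 2 with division by the median of LTR and DNA transposon rows. Of all 203 rows 44 (21.7%) were higher by that much as deposited, and 34 and 19 with these divisions, in that order.

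The remaining Jockey-clade rows were mixed. BS2 was at 3.86 and 4.38 and BS3_DM at 3.88 and 4.22, while BS was at 2.32 and 2.36. BS4_DM went the other way, with 2.23 and 2.03, just past the 1.1-fold line. JOCKEY2 was at 3.23 and 3.62, Jockey at 1.23 in both treatments and HELENA_RT at 3.72 and 4.26. Rows of 1 name family could thus lie on both sides of 0.

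I_DM had the largest H3K9me3 decrease of the members. It was at 1.63 in GFP RNAi cells and 1.17 in KDM4A RNAi cells, 1.4-fold lower, or -0.48 on the log2 scale (-0.28 after adding a pseudocount of 1). The next largest decrease among members, at ALUII_DM with 1.51 and 1.33, was -0.18. Only 6 of the 203 rows had a larger decrease than I_DM. The related IVK_DM was at 2.24 and 2.15. In KDM4A RNAi cells I_DM was the lowest member, below Jockey, which had been lowest in the control.

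**Figure D4:**
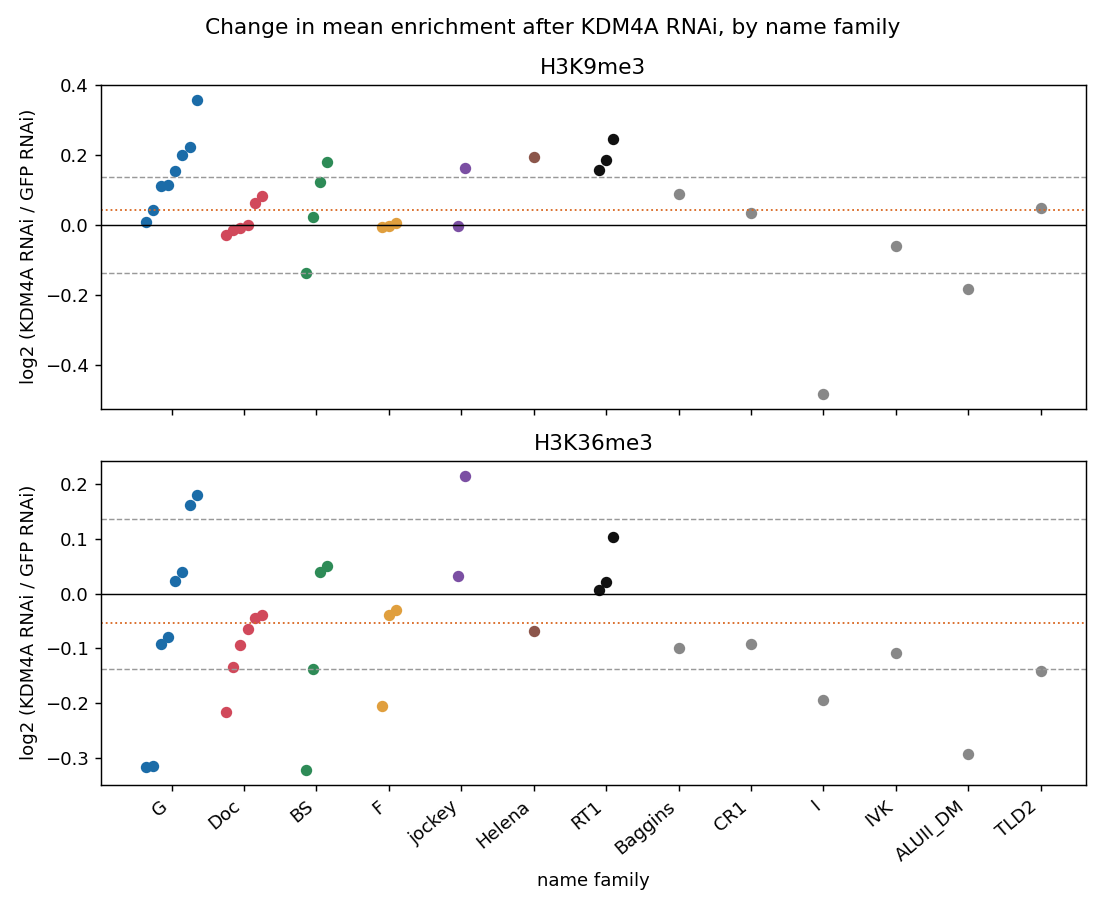
Log2 ratio of KDM4A RNAi to GFP RNAi mean enrichment (vertical axes) for H3K9me3 (top) and H3K36me3 (bottom), 1 point per member, by name family. Dashed lines mark a change of 1.1-fold and the orange dotted line the median of all rows of the table; for H3K9me3 the RT1 points lie from 0.16 to 0.25, the F points within 0.01 of 0, and I_DM at -0.48.

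The H3K9me3 ratio was larger at members with more of the mark. The 11 members with the lowest mean of both treatments (1.23 to 2.57) had a median log2 ratio of -0.01, with 4 higher and 7 lower. The middle 11 (2.63 to 3.62) had a median of 0.08, with 9 higher and 2 lower. The highest 11 (3.66 to 5.21) had a median of 0.16, with 10 higher and 1 lower, the exception being FW3_DM. These splits are as deposited. Either scaling lowers every ratio by a fixed amount, which keeps the order of these medians but not the splits. G7_DM, among the highest 11, was then also below 0 (-0.023 and -0.057). LTR and DNA transposon rows within the same 3 level ranges had medians of 0.04 (60 rows), 0.06 (40 rows) and 0.12 (12 rows). The order over level was therefore the same in those transposons. Of those rows 39, 33 and 12 were higher as deposited and 21, 7 and 0 lower, in that order. In the lowest range 3 of the 11 members (I_DM, ALUII_DM and BS4_DM) were lower by 1.1 times or more and none higher, where 3 of the 60 LTR and DNA transposon rows were lower and 12 higher by that much. This contrast is as deposited. Division by the median of LTR and DNA transposon rows subtracts 0.065 from every log2 ratio. More of the 60 rows are then lower and fewer higher by 1.1 times, while the members' count does not change. The contrast is then smaller. Over all levels, 22 of 122 LTR retrotransposon rows were lower and 21 higher by that much as deposited, and 29 and 10 after this division. For the 21 DNA transposon rows these counts were 1 and 5, and then 4 and 0. The level and the family cannot be told apart here, since all 3 RT1 rows are also among the 11 members with the highest level. FW3_DM and G7_DM had log2 ratios of -0.005 and 0.008 at levels of 3.66 and 5.00. A role of level or family was not tested.

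**Figure D5:**
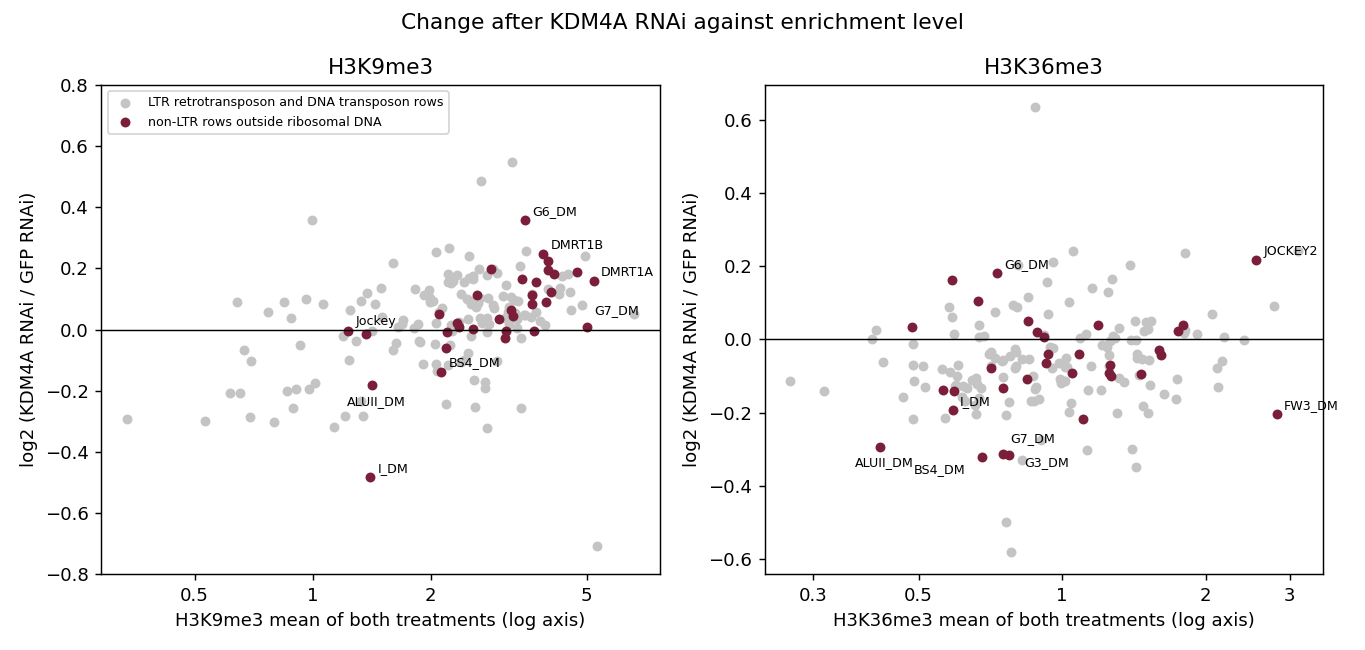
Log2 ratio of KDM4A RNAi to GFP RNAi (vertical axes) against the mean of both treatments (horizontal log axes) for the 33 members in dark red and the LTR retrotransposon and DNA transposon rows in grey. For H3K9me3 the members' median is -0.01 in the lowest 11 and 0.16 in the highest 11, with I_DM lowest of the members; for H3K36me3 G3_DM, G7_DM and BS4_DM lie lowest of the members and JOCKEY2 highest.

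H3K36me3 was lower after KDM4A RNAi at 22 of 33 members (66.7%) and higher at 11, where 65.3% of all 199 rows were lower and 33.7% higher. By 1.1 times or more 9 members were lower and 3 higher, against 20.6% and 12.1% of all rows. By 1.2 times or more 4 members were lower and 0 higher, against 6.03% and 4.02% of all rows. With columns divided by the median of all rows the 1.2-fold counts turned to 0 lower and 2 higher (G6_DM and JOCKEY2). Of all 199 rows 2 were then lower and 19 higher by that much. The median log2 ratio was -0.07 for the members and -0.05 for all rows. The same division turned the majority, to 18 higher (54.5%) and 15 lower with a median of 0.02. Of all rows 62.3% were then higher and 37.7% lower. With division by the median of LTR and DNA transposon rows it stayed at 11 and 22, where 35.7% of all rows were higher and 64.3% lower.

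The largest H3K36me3 decreases were at BS4_DM with 0.755 and 0.604, G3_DM with 0.860 and 0.691, G7_DM with 0.834 and 0.671 and ALUII_DM with 0.457 and 0.373. Their log2 ratios of -0.32, -0.32, -0.31 and -0.29 stayed below -0.2 under both scalings, and a pseudocount of 1 brought them to -0.130, -0.137, -0.134 and -0.086. DOC6_DM followed with 1.19 and 1.02, FW3_DM with 3.02 and 2.62 and I_DM with 0.629 and 0.550. All 6 Doc rows and all 3 F rows were lower as deposited, but 3 Doc and 2 F rows were above 0 when columns were divided by the median of all rows.

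The 3 members with an H3K36me3 increase past 1.1-fold were JOCKEY2, G6_DM and G_DM. JOCKEY2 was at 2.36 and 2.75, a log2 ratio of 0.22. G6_DM was at 0.683 and 0.774 and G_DM at 0.554 and 0.620, with log2 ratios of 0.18 and 0.16. The G family therefore held both increases and decreases of this mark past 1.1-fold. Its range of 0.50 on the log2 scale was the widest of any name family. It also has the most rows (8), and a range tends to grow with the number of rows. The RT1 rows were close to level as deposited, with DMRT1A at 0.880 and 0.893, DMRT1B at 0.641 and 0.689 and DMRT1C at 0.912 and 0.916, all above 0 under every scaling.

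Set side by side, several members differed by 1.1 times or more as deposited in both marks, and others in a single mark. G6_DM had log2 ratios of 0.36 for H3K9me3 and 0.18 for H3K36me3, JOCKEY2 of 0.16 and 0.22 and G_DM of 0.20 and 0.16. I_DM had -0.48 and -0.19, ALUII_DM -0.18 and -0.29 and BS4_DM -0.14 and -0.32. G7_DM differed by 0.01 in H3K9me3 and by -0.31 in H3K36me3. FW3_DM was at -0.01 and -0.20, and HELENA_RT at 0.19 and -0.07. The labels list no separate inputs for each antibody, so both marks may share control libraries, and no overlap or correlation of their changes is given.

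The 3 elements left out of the group, R1_DM, R1-2_DM and R2_DM, had a median H3K9me3 of 3.46 in GFP RNAi cells and a median log2 ratio of 0.15. R1_DM is of the same clade as the RT1 rows, and its H3K9me3 was 3.57 and 3.82 and its H3K36me3 0.638 and 0.671. R1-2_DM was at 3.46 and 4.61 for H3K9me3, a log2 ratio of 0.41 that was above that of every member, and at 0.904 and 1.11 for H3K36me3. For LTR retrotransposon rows the median H3K9me3 log2 ratio was 0.05 and for DNA transposon rows 0.07. For H3K36me3 these were -0.06 and -0.08. The group medians of the members (0.05 and -0.07) lay between these values for each mark. None of these contrasts has a replicate check.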

How the data were processed

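Per the labels, ChIP-seq for H3K9me3 and H3K36me3 and inputs were made in S2 cells, with libraries numbered 3 and 4 in each of 6 groups. Per the file headers, the deposited values are the authors' mean enrichment per repeat row and treatment, given to 3 decimals. Reading them as linear ratios is an assumption made here. The tools listed per the submitters' processing notes are Bowtie and MACS2. The sources used here do not state their roles, the build, the repeat library, the denominator, the depth scaling or the libraries in each mean. Per-library values and depths were not analysed here.

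Members were matched by type and name, and name families by the start of the name. The log2 ratio of KDM4A RNAi to GFP RNAi was computed without a pseudocount (Python 3.11.15, numpy 2.4.6, scipy 1.17.1), tested first on simulated data. With 1 mean per treatment no p-value was possible, and a change of 1.1 times stands in for a call. All members may be named, and the largest and smallest values and all families of more than 1 row are described. The members, families and lists were chosen with earlier results of these data known. Alternatives were a pseudocount of 1, 2 column scalings, a level filter, a fold of 1.2, means, medians over families and adding the 3 left-out elements.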

Additional observations from a re-analysis of the deposited data

How the results depend on the processing

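No paired analysis was possible because each treatment has a single mean, and for the same reason no replicate could be left out. A change of value cannot be set against replicate spread here, so values are given, and the cause was not tested except where the setting fixes it. Dividing columns by the median of all rows subtracts 0.031 from every H3K9me3 log2 ratio and -0.089 from every H3K36me3 one, and dividing by the median of LTR and DNA transposon rows subtracts 0.065 and -0.003. The members' median log2 ratio for H3K9me3 (0.050) was 0.034 with a pseudocount of 1, 0.019 and -0.015 under these scalings, 0.112 for the 24 members at or above the median level of all rows, 0.057 as a mean and 0.074 with the ribosomal DNA elements added; that for H3K36me3 (-0.069) was -0.033, 0.021, -0.066, -0.041 (18 members), -0.068 and -0.054, and -0.079 over name families. For H3K9me3 the second scaling gave 15 members higher and 18 lower (23 and 10 as deposited), and the level filter left 3 lower. For H3K36me3 the first scaling gave 18 higher (11 as deposited), and the level filter left 6 higher and 12 lower of 18. At 1.2 times or more, 1 member was higher (G6_DM) and 1 lower (I_DM) in H3K9me3, and 0 higher and 4 lower in H3K36me3, which the first scaling turned to 2 and 0. At 1.1 times the first scaling gave 5 higher and 4 lower in H3K36me3 (3 and 9 as deposited) and 7 and 3 in H3K9me3 (10 and 3), and the second gave 3 and 8, and 3 and 3. Of all 199 rows of H3K36me3 42 were higher and 12 lower at 1.1 times under the first scaling, and 24 and 38 under the second. A pseudocount of 1 shrinks every ratio by its construction, most at low levels. Median control levels (3.12 and 0.912) were 3.02 and 1.09 as means and 2.96 and 0.880 over name families. Spearman's rho of both marks' levels (0.391) was 0.383 in KDM4A RNAi cells and 0.377 without Jockey and G7_DM. The H3K9me3 difference between the highest and lowest 11 members (0.165) was 0.160 between the highest and lowest 16, an alternative added after seeing the data. Of single members, 4 changed sign under the first scaling and 8 under the second in H3K9me3, and 7 and 0 in H3K36me3; none of these differed by 1.1-fold or more as deposited. Depth limits every value to an unknown extent.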
